A study of Bos taurus with 43 samples.

Results

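The glucocorticoid receptor gene NR3C1 and 9 genes known to be induced by glucocorticoids, ANGPTL4, KLF15, CEBPD, RASD1, FKBP5, TSC22D3, PER1, PDK4 and SGK1, were followed in bovine skeletal muscle. The genes were found by the gene name, description or accession that the array files give for each probe. All 10 were on the array, out of 15834 genes for which a symbol was found, and they were measured by 12 probes, with 2 probes each for CEBPD and SGK1. All 12 probes passed the filter on dim signals, which 16354 of the 21475 gene probes on the array passed.

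Glucocorticoids such as cortisol and the drug dexamethasone enter cells and bind the glucocorticoid receptor, a transcription factor that chaperones of the HSP90 family hold in the cytoplasm until the hormone binds. The bound receptor moves to the nucleus, where it activates some genes and represses others. In skeletal muscle the receptor is best known for shifting fuel use from glucose to fatty acids and, at high or prolonged exposure, for loss of muscle protein. FKBP5, TSC22D3, PER1 and SGK1 are among the genes most often used as readouts of receptor activity.

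RNA of biceps brachii, a muscle of the foreleg, was hybridized from 43 male cattle, with 1 animal per single-colour array. The 4 positive animals (S21, S54, S56 and S57) were commercial cattle from the slaughterhouse whose labels give a suspicion of corticosteroid treatment and which the study classed as positive from thymus histology and from residues of the synthetic glucocorticoid dexamethasone in urine. The residue of S56 was under the limit of quantification. A further 21 commercial animals, called unknown, had no known treatment status. Dexamethasone was not detected in the urine of any of them. The study proposes that those whose expression grouped with the positive animals might have been treated too. Both kinds of commercial animal were 12 to 24 months old and mostly Charolais, Limousine or crosses of these. Negative controls came from earlier controlled experiments and were 5 Charolais by Limousine cross-breeds aged 18 months (K) and 13 Holstein cattle aged 13 to 18 months (C). The dose and time of any treatment of the 4 positive animals are not part of the labels. Neither control group came from the slaughterhouse animals, and C also differed in breed.

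The groups also differed in how and where they were measured. The positive animals lay on slides 9 and 10, scanned on 1 day, together with unknown animals 50 and 81 (slide 9) and 78 and 79 (slide 10). No slide or scan day held both positive and control arrays, or both K and C arrays, so that group and batch cannot be told apart in those comparisons. Of the 5 K arrays, 2 were extracted with version 9.1.3.1 and 3 with version 9.5.3.1 of the scanner software, and the other arrays with version 9.5.1.1. The K arrays were read on scanners 1 and 2 and the arrays of all other groups on scanner 3. Spots marked by the software as well above background made up between 74.95% and 89.4% of an array for the positive animals. For K the share lay between 62.9% and 73.65% and for C between 62.3% and 73.2%, and for the 4 unknown animals that shared slides with the positive ones it ran from 40.2% (animal 79) to 97.3% (animal 50). Spike-in RNA, a control added to each sample, had a low mean log2 signal of 7.76 to 8.43 in 5 unknown animals of scan days 7 to 9. These were 29, 39, 52, 61 and 76, and all other arrays had 11.31 or more. Animal 76 also had 109 saturated spots, where no other array had more than 5.

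Muscle genes were bright in all groups, with a log2 signal of MB (myoglobin) between 16.92 and 19.03 over the unknown animals and a mean of 18.49 ± 0.22 (SD, n = 4) for the positive ones. Genes of fast fibres and of limb position nevertheless stood apart between groups that share a tissue label. The 2 probes of MYH1, a myosin heavy chain of fast fibres, averaged 9.82 and 11.47 in the positive animals against 17.14 and 15.72 in K and 17.62 and 17.35 in C. The 4 unknown animals on the slides of the positive ones averaged 13.49 ± 3.58 and 14.94 ± 3.15 (SD, n = 4), also above the positive means. HOXA9, a homeobox gene used in the limb, averaged 3.13 at probe A_73_119831 in the positive animals, 10.92 in K and 11.09 in C, while the 4 unknown animals on the same slides averaged 4.34. Of the other HOXA9 probes, A_73_116160 and A_73_120553 were also lower in the positive animals than in either control group, and A_73_101190 showed a smaller gap, 7.15 in the positive animals against 8.56 in K. ZFY, a Y-linked gene, was under a log2 signal of 5 in 11 unknown animals, which were those of scan days 4 and 5, although all animals were described as male. The part of these differences in the results below was not tested.

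Changes were tested with limma across all 16354 probes on normalized log2 signals, and a probe was called where the Benjamini-Hochberg adjusted p was under 0.05 and the change at least 2-fold. Against K, 3 of the 12 probes were called higher in the positive animals (ANGPTL4, TSC22D3 and PDK4) and 0 lower, beside 14.4% and 13.8% of all probes. Against C, 1 was called higher (ANGPTL4) and 4 lower (PDK4, FKBP5, PER1 and KLF15), beside 8.4% and 9.4%. Against the 21 unknown animals, 0 of the 12 were called, beside 0% of all probes higher and 0.0489% lower (8 probes). This number was 0 to 2 with 1 positive animal left out. It was 1390 without the filter on dim probes (1007 of them higher), 1406 with a filter on probes well above background (1145 higher) and 1053 in a fit common to all arrays (569 higher). Against the 4 unknown animals on the same slides, with slide as a block, 0 of the 16354 probes were called (0% in each direction), while 1873 probes had an unadjusted p under 0.05. Without animal 79, 9 probes were called, 0 of them higher. Between the control groups, 5 of the 12 were called higher in C than in K (PDK4, ANGPTL4, FKBP5, TSC22D3 and KLF15) and 0 lower, beside 10.9% and 9.69% of all probes.

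The direction of change over all probes depended on the scaling. Of the called probes, 51.06% were higher in the positive animals than in K, but 69.19% with 75th percentile scaling and 32.97% with cyclic loess run on array pairs (pairwise loess). Against C the share was 47.17%, and 83.31% and 27.84% with these alternatives. For C against K it was 52.87%, and 34.91% with 75th percentile scaling. Quantile normalization gave 39.82% against K and 36.9% against C. The median change over all 16354 probes moved likewise, from -0.03 to 0.11 (75th percentile) and -0.26 (pairwise loess) against K, from -0.05 to 0.20 and -0.28 against C, and from 0.02 to -0.07 and -0.12 on the shared slides.

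**Figure D1:**
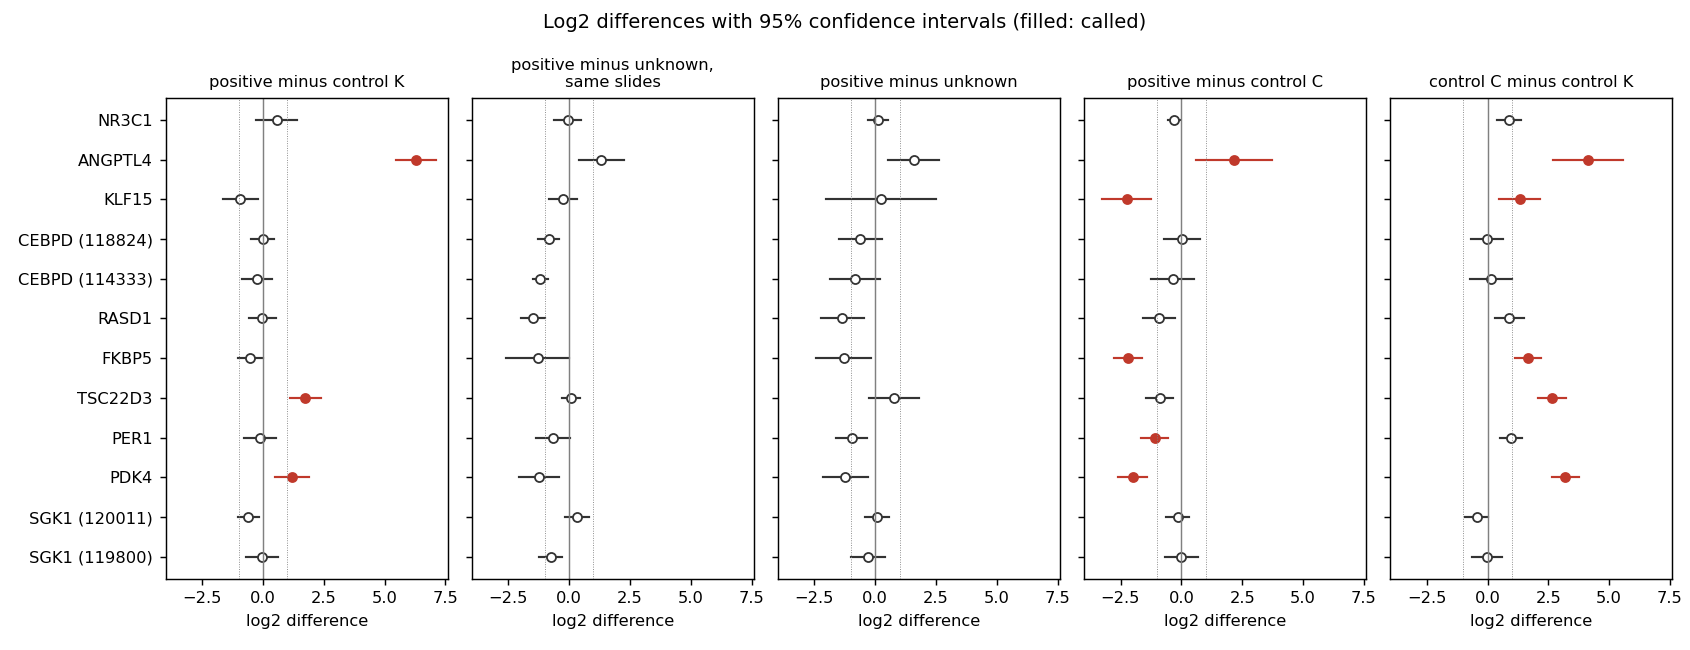
Log2 differences (x axis) of the 12 probes (y axis) in 5 comparisons, with 95% confidence intervals from limma and filled red points for called probes. ANGPTL4 was called in 3 of the 5 panels, with differences of 6.30, 2.16 and 4.14, and no point is filled in the 2 panels against unknown animals.

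NR3C1, the receptor itself, was called in none of the 5 comparisons (limma). Its log2 signal was 10.77, 11.05, 11.03 and 10.58 in S21, S54, S56 and S57. In K it was 10.75, 11.32, 9.34, 10.54 and 9.50 in K7, K8, K10, K11 and K12. It ran from 10.90 to 11.41 in C (median 11.19) and from 10.11 to 11.55 in the unknown animals (median 10.82). The order of the means was C (11.17), positive (10.86), unknown (10.74) and K (10.29), and the ranges of all groups overlapped in part. The positive animals were lower than C by a log2 difference of -0.32 (95% CI -0.56 to -0.07, limma adjusted p = 0.04), under the 2-fold limit. They differed from K by 0.57 (95% CI -0.27 to 1.41), from the 21 unknown animals by 0.12 (-0.29 to 0.52) and from those on the same slides by -0.06 (-0.62 to 0.50). On slide 9 both positive animals lay below both unknown animals (-0.53), and on slide 10 above both (0.42), so that the slides did not share a direction. NR3C1 was higher in C than in K by 0.88 (limma adjusted p = 0.00396), again under 2-fold, and past it without K8 (1.14, limma adjusted p = 2.51e-04) or, barely, without K7.

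**Figure D2:**
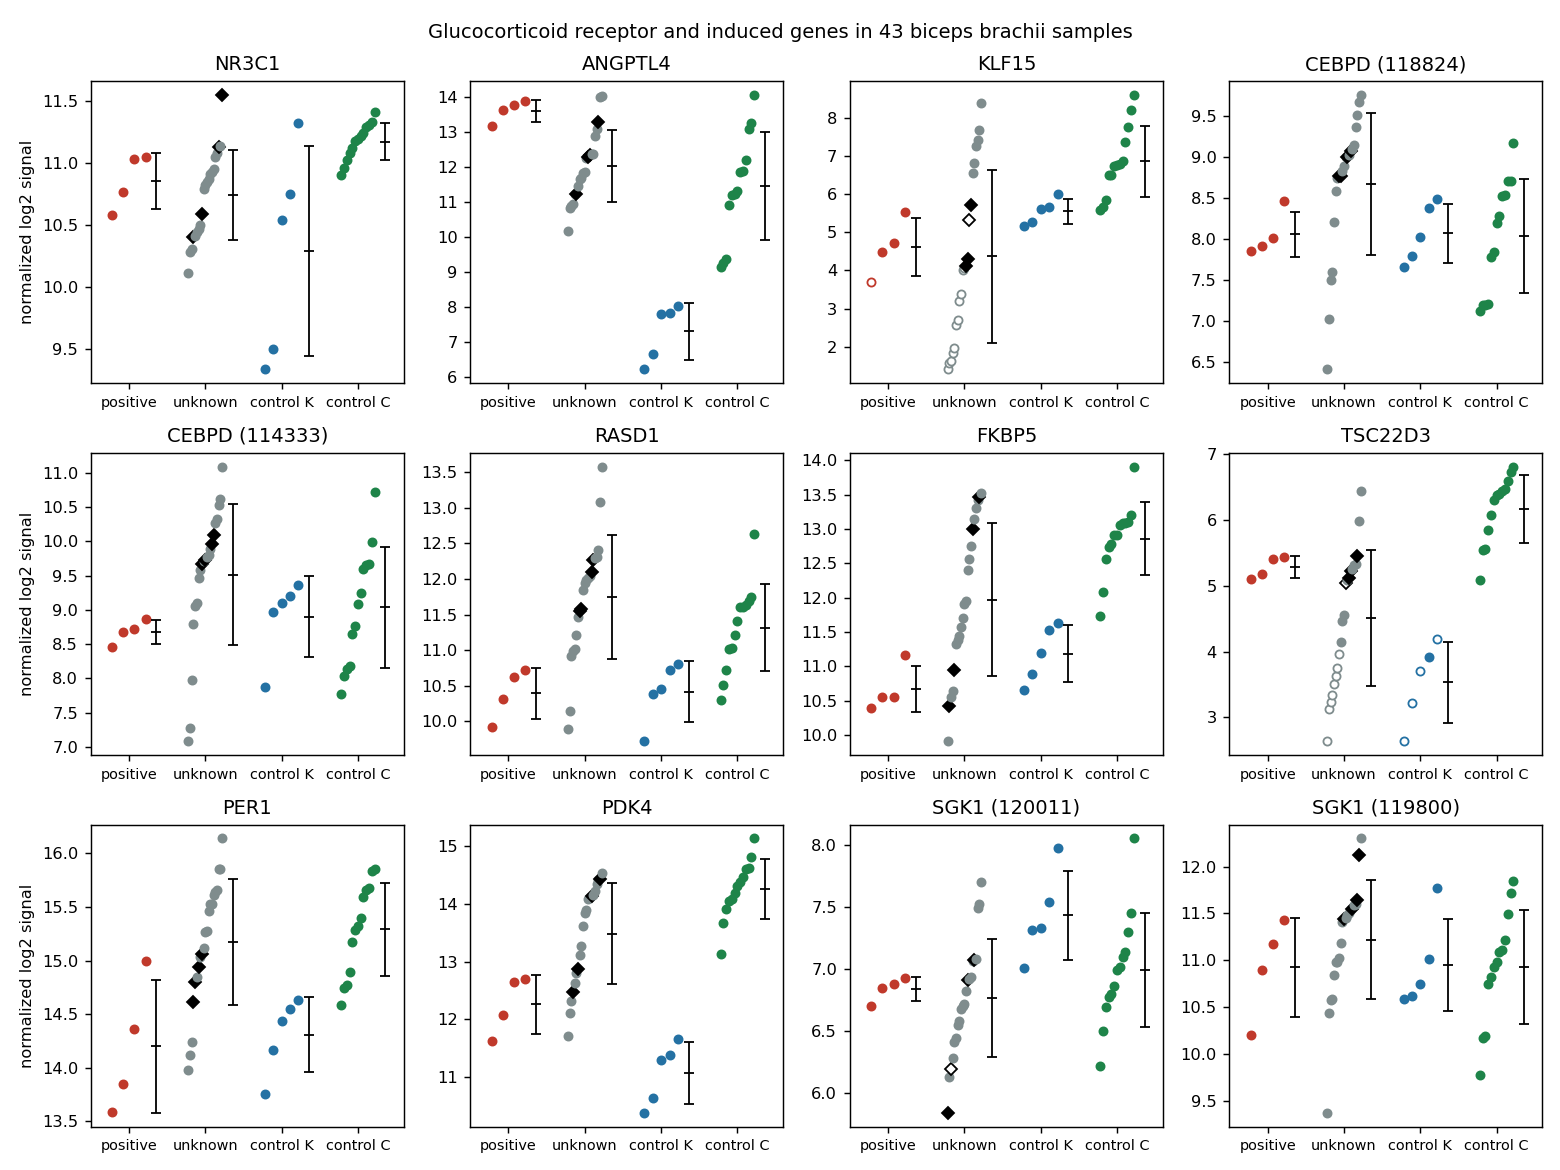
Normalized log2 signal (y axis) of the 12 probes in the 43 animals by group, with 1 point per animal, mean ± SD at the right of each group, black diamonds for the 4 unknown animals on the slides of the positive animals and open symbols for spots not well above background. The 4 positive animals sit between 13.15 and 13.86 for ANGPTL4, far above the 5 K animals at 6.20 to 8.01.

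ANGPTL4, a secreted inhibitor of lipoprotein lipase that holds back the uptake of circulating fat, was the brightest in the positive animals and the dimmest in K. The log2 signal was 13.15, 13.61, 13.75 and 13.86 in S21, S54, S56 and S57. In K7, K8, K10, K11 and K12 it was 7.78, 7.82, 6.20, 6.65 and 8.01. The positive animals thus lay above every K animal, by a log2 difference of 6.30 (SE 0.37, 78.8-fold, limma adjusted p = 1.83e-06, two-sided exact permutation p = 0.0159, the smallest that 126 splits can give). The ranges of these groups did not overlap for 43.3% of all probes, so that separation alone, and this exact p, do not set ANGPTL4 apart. In C ANGPTL4 ran from 9.12 to 14.05 with a median of 11.29, so that 1 C animal (C21) was above all positive animals. The difference from C was 2.16 (SE 0.74, 4.48-fold, limma adjusted p = 0.0297, exact permutation p = 0.0101). Without any 1 of the positive animals, this difference was 2.07 to 2.31 and the adjusted p 0.0511 to 0.0782, above the threshold. The call was also lost with scan day as a random block (2.24, limma adjusted p = 0.0503).

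Unknown animals carried ANGPTL4 at 10.15 to 14.02 (median 11.85), a range that reached past the positive animals in animals 58 (14.02) and 76 (13.99, on an array of low spike-in signal). The difference from all 21 was 1.58 (95% CI 0.54 to 2.61, limma adjusted p = 0.111, two-sided exact permutation p = 0.00632 over 12650 splits), and with a filter on probes well above background it was called (limma adjusted p = 0.0499). On the shared slides, animals 50, 81, 78 and 79 had 11.23, 13.27, 12.26 and 12.34. Of the 4 positive animals, 3 were above all of these, and S21 at 13.15 was above 3 of them. The mean difference was 1.55 on slide 9 and 1.09 on slide 10, and 1.32 with slide as a block (95% CI 0.39 to 2.24, limma adjusted p = 0.309, exact permutation p = 0.0571 over 70 splits, for which the smallest p is 0.0286). These splits took no account of slide. C exceeded K by 4.14 (SE 0.69, limma adjusted p = 9.66e-05), with all 13 C animals above all 5 K animals. The ranges of the 2 control groups did not overlap for 16.2% of all probes.

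Adipocyte markers moved with ANGPTL4 between the positive animals and K. Of 10 tested marker probes, 7 were called higher than in K and 0 lower, beside 14.4% and 13.8% of all probes, among them FABP4, a fatty acid binding protein of fat cells (9.80 against 4.57, where 3 of 5 K animals were well above background), and CIDEC, a lipid droplet protein (9.47 against 5.38). The mean log2 signal over the 10 probes was 9.79, 10.11, 9.96 and 9.64 in S21, S54, S56 and S57 and 7.80, 8.22, 7.75, 8.35 and 7.32 in K7, K8, K10, K11 and K12. The brightest marker probe was that of GPD1 (brightness differs between probes and is not abundance), and ADIPOQ (adiponectin) was well above background in 0 of the 5 K animals. Against C, 1 of the 10 was called (CIDEA, higher by 1.96), beside 8.4% higher and 9.4% lower of all probes, and the list averaged 9.87 ± 0.21 (SD, n = 4) for the positive animals against 9.59 ± 0.58 (SD, n = 13) for C. The slide mates averaged 9.89. In C against K, where ANGPTL4 was also higher, 6 of the 10 were called higher and 0 lower, beside 10.9% and 9.69% of all probes, with a median of 1.22 (FABP4 5.03 and CIDEC 3.71). Since these are whole tissue samples, more cells of a type and more RNA per cell cannot be told apart, and the part of fat cells in the ANGPTL4 result was not tested.

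RASD1, a small GTPase of the RAS family first found as a gene induced by dexamethasone, was lower in the positive animals than in their slide mates. The log2 signal was 10.62, 10.32, 10.72 and 9.92 in S21, S54, S56 and S57, against 11.58, 11.55, 12.10 and 12.27 in animals 50, 81, 78 and 79. The 4 positive animals were below all 4 unknown animals, by -1.25 on slide 9 and -1.71 on slide 10. With slide as a block the difference was -1.48 (95% CI -1.97 to -0.98), but the adjusted p over all probes was 0.14 in limma. The two-sided exact permutation p was 0.0286, the smallest that 70 splits can give. These splits exchange animals between slides, and splits kept within slides, which are fewer, could not give a p this small. The ranges of the 2 groups did not overlap for 6.63% of all probes.

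Over all 21 unknown animals RASD1 ran from 9.89 to 13.58 (median 11.94), and the difference was -1.35 (95% CI -2.23 to -0.46, limma adjusted p = 0.111, exact permutation p = 0.00617). The lowest unknown animal, 270 (9.89), lay below all positive animals and 269 (10.15) within their range. The highest, 39 (13.58) and 61 (13.08), were on arrays of low spike-in signal. In K the levels were 10.72, 10.39, 9.72, 10.81 and 10.45 in K7, K8, K10, K11 and K12, so that positive (10.40) and K (10.42) means differed by -0.02 (95% CI -0.57 to 0.53). In C the levels were 10.30 to 12.63 (median 11.41), and the positive animals were lower by -0.92 (limma adjusted p = 0.0292, exact permutation p = 0.0126), under 2-fold. The order of the means was thus unknown, C, K and positive. Although no difference of the positive animals was called, RASD1 became called against C with the authors' processed table (-1.12, limma adjusted p = 0.00972) and without S56 (-1.03, adjusted p = 0.0404). Against all unknown animals it became called in the common fit (adjusted p = 0.0332) and with a filter on probes well above background (adjusted p = 0.0499).

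CEBPD, a C/EBP transcription factor that responds early to glucocorticoids and to inflammation, followed the same order on the shared slides at both probes. At A_73_114333 the log2 signal was 8.72, 8.87, 8.68 and 8.45 in S21, S54, S56 and S57 and 9.73, 9.67, 10.09 and 9.96 in animals 50, 81, 78 and 79. All 4 positive animals were below all 4 unknown ones, with a difference of -1.18 (95% CI -1.49 to -0.88, limma adjusted p = 0.0977, exact permutation p = 0.0286 over splits that take no account of slide). At A_73_118824 the positive animals lay between 7.86 and 8.46 and the slide mates between 8.77 and 9.08, with a difference of -0.84 (95% CI -1.26 to -0.42, limma adjusted p = 0.185, exact permutation p = 0.0286 over the same splits). The 2 probes ran together over the 43 arrays (Pearson's r = 0.93).

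Against the control groups CEBPD showed differences whose intervals spanned 0. At A_73_114333 the difference was -0.22 (95% CI -0.84 to 0.39) from K and -0.36 (-1.26 to 0.54) from C, and at A_73_118824 it was -0.01 (-0.48 to 0.46) and 0.02 (-0.70 to 0.75). With pairwise loess the difference from K at A_73_114333 was -1.01 and was called (limma adjusted p = 0.0185). The exact permutation p of these 4 comparisons lay between 0.45 and 1. Against all 21 unknown animals the differences were -0.83 and -0.61 (limma adjusted p = 0.289 and 0.36). The unknown range, 7.08 to 11.09 at A_73_114333, held all 4 positive animals. In all, 20 exact tests were made for ANGPTL4, RASD1 and CEBPD, and their p-values are not corrected for this number.

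**Figure D3:**
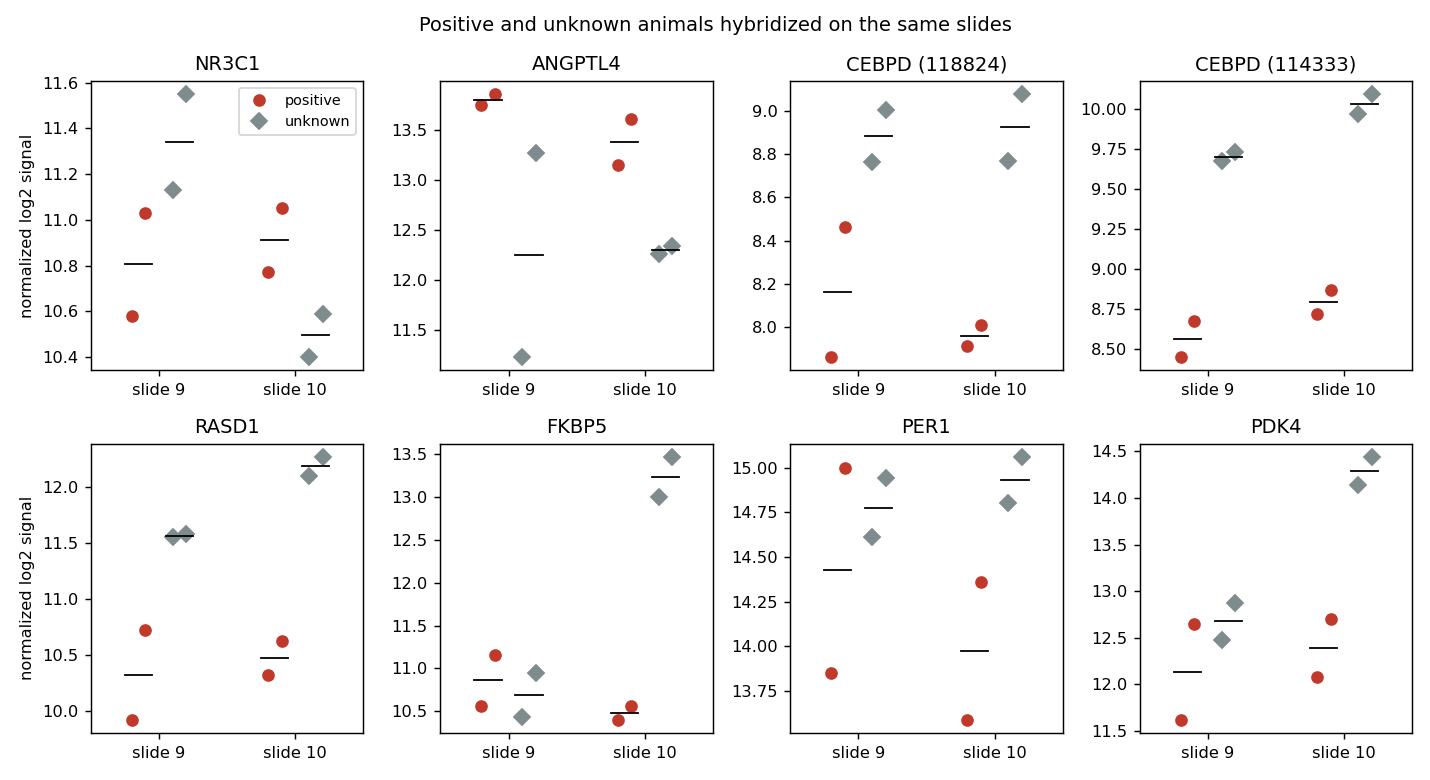
Normalized log2 signal (y axis) of 8 probes in the positive animals (red circles) and the unknown animals (grey diamonds) of slides 9 and 10, with 1 point per animal and a bar at each mean. RASD1 and both CEBPD probes are lower in the positive animals on both slides, and FKBP5 and PDK4 differ mainly on slide 10.

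PDK4, the kinase that shuts down pyruvate dehydrogenase and so spares glucose, lay between the control groups. The log2 signal was 12.08, 12.70, 12.65 and 11.62 in S21, S54, S56 and S57 and 10.37, 10.63, 11.30, 11.38 and 11.66 in K7, K8, K10, K11 and K12. Of the positive animals, 3 were above all K animals. The difference from K was 1.19 (SE 0.31, limma adjusted p = 0.00918), and with all arrays in a common fit the adjusted p was 0.0531. In C, PDK4 ran from 13.13 to 15.14 (median 14.31), above all positive animals, and the positive animals were lower by -2.0 (SE 0.28, 4.01-fold, limma adjusted p = 4.06e-05). C was higher than K by 3.20 (9.17-fold, limma adjusted p = 5.3e-08), with no overlap.

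On the shared slides PDK4 was 12.48 and 12.87 in animals 50 and 81, close to the positive animals of slide 9, and 14.14 and 14.44 in animals 78 and 79 of slide 10. The differences were -0.55 on slide 9 and -1.90 on slide 10, and -1.22 with slide as a block (95% CI -2.05 to -0.40, limma adjusted p = 0.293). The difference from all 21 unknown animals was also -1.22 (limma adjusted p = 0.127, and 0.0442 in the common fit, where it was called).

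FKBP5, a co-chaperone that binds the receptor complex and dampens its response, showed the same contrast between slides. It was 10.40, 10.56, 11.16 and 10.56 in S21, S54, S56 and S57, and 10.95, 10.43, 13 and 13.47 in animals 50, 81, 78 and 79. The difference was 0.18 on slide 9 and -2.76 on slide 10, so that the slides did not share a direction. The pooled value was -1.29 (95% CI -2.59 to 0.01, limma adjusted p = 0.44). C animals ran from 11.73 to 13.91 (median 12.92), above all positive animals, which were lower by -2.19 (SE 0.28, 4.56-fold, limma adjusted p = 1.21e-05). K7, K8, K10, K11 and K12 had 10.89, 11.64, 11.53, 10.66 and 11.20, and the positive animals differed from them by -0.51 (95% CI -1.04 to 0.02). C exceeded K by 1.68 (limma adjusted p = 4.51e-05). The unknown animals spread from 9.91 to 13.52, with a median of 11.91.

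PER1, a clock gene that glucocorticoids also induce directly, was bright in all animals. Its log2 signal was 13.59, 14.36, 15 and 13.85 in S21, S54, S56 and S57, and 14.59 to 15.85 in C (median 15.32). The positive animals were lower than C by -1.09 (SE 0.26, limma adjusted p = 0.0038), with S56 inside the range of C. With quantile normalization, pairwise loess or normexp background correction this difference was between -0.96 and -0.92, and without S21 or S57 it was -0.89 and -0.98, in each case under 2-fold. The difference from K was -0.11 (95% CI -0.76 to 0.53), from the unknown animals -0.97 (limma adjusted p = 0.111) and from those on the same slides -0.66 (-1.36 to 0.05).

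Of the 12 probes, the ranges of the groups did not overlap for 3 between the positive animals and K (ANGPTL4, TSC22D3 and SGK1 at A_73_120011), beside 43.3% of all probes, and for 3 between the positive animals and C (PDK4, FKBP5 and KLF15), beside 16.4%. On the shared slides this held for 4 (RASD1, both CEBPD probes and SGK1 at A_73_119800), beside 6.63%, and against all 21 unknown animals for 0, beside 0.312% of all probes.

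SGK1, a kinase that acts on ion channels and survival signals, was measured by 2 probes that did not run together over the 43 arrays (Pearson's r = -0.12). At A_73_119800 the positive animals had 10.21, 10.90, 11.43 and 11.17 in S21, S54, S56 and S57, below all 4 slide mates at 11.44 to 12.12, by -0.76 (95% CI -1.25 to -0.28, limma adjusted p = 0.268). The differences from K and C at this probe were -0.02 (95% CI -0.69 to 0.64) and -0.01 (-0.69 to 0.67). At A_73_120011 the positive animals lay between 6.70 and 6.93, below all K animals (7.0 to 7.98), by -0.59 (limma adjusted p = 0.024, under 2-fold). With pairwise loess that difference turned to 0.41. On the shared slides A_73_120011 differed by 0.33 (95% CI -0.16 to 0.83), with -0.11 on slide 9 and 0.78 on slide 10. A_73_119800 differed by -0.58 and -0.94, so that the signs of the 2 probes parted on slide 10 alone.

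KLF15 and TSC22D3 were dim, and several animals gave no signal well above background. KLF15 is a transcription factor that works with the receptor on amino acid and lipid metabolism in muscle. It was 4.71, 5.54, 4.48 and 3.71 in S21, S54, S56 and S57, the last not well above background. In C it ran from 5.59 to 8.60 (median 6.76), above all positive animals, which were lower by -2.25 (SE 0.48, limma adjusted p = 0.00155). With normexp background correction the difference was -0.58 and the call was lost, as it was in the common fit (adjusted p = 0.0786). Over the 14 alternatives it ran from -3.91 to -0.58. In K it lay between 5.17 and 6.0, and the difference of -0.94 (limma adjusted p = 0.0335) stayed under 2-fold, but passed it with pairwise loess (-2.92), quantile normalization (-1.62), the authors' processed table (-1.13) and without S54 (-1.25), K8 (-1.03) or, barely, K11. It was -0.11 with normexp background correction and -0.37 with 75th percentile scaling (limma adjusted p = 0.58 and 0.309). C exceeded K by 1.31 (limma adjusted p = 0.0127), a call kept in 10 of 15 alternatives, which gave 0.46 to 1.43. From the slide mates it differed by -0.24 (95% CI -0.83 to 0.34).

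TSC22D3, also known as GILZ, mediates part of the anti-inflammatory action of glucocorticoids. It was 5.44, 5.10, 5.18 and 5.40 in S21, S54, S56 and S57 and 3.22, 2.64, 4.20, 3.71 and 3.92 in K7, K8, K10, K11 and K12, of which K12 alone was well above background. The signals of the positive animals lay above those of all K animals, with a fitted difference of 1.74 (SE 0.29, limma adjusted p = 6.25e-04) that sets them against signals mostly at background, so that its size is uncertain. The direction turned to -0.33 (limma adjusted p = 0.454) with pairwise loess, and with normexp background correction the difference was 0.45, under 2-fold. In C it ran from 5.09 to 6.81 (median 6.38), and the positive animals were lower by -0.89 (limma adjusted p = 0.0128), under 2-fold. This was 0.24 with 75th percentile scaling and -3.10 with pairwise loess, where it was called. C exceeded K, with the same limit, by 2.63 (limma adjusted p = 7.65e-07), and by 0.70, under 2-fold, with normexp background correction. The slide mates had 5.04 to 5.45, and the difference from them was 0.07 (95% CI -0.29 to 0.43).

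Among the unknown animals both genes separated by scan day. KLF15 was 1.40 to 4.06 in the 11 animals of scan days 4 and 5, well above background in 0 of them, and 4.10 to 8.38 in the other 10, well above background in 9. Its gap between these sets was narrow. The animals of scan day 6 had 4.10 to 5.71 and those of scan days 7 to 9 had 6.55 to 8.38. TSC22D3 was 2.65 to 4.55 in those 11 and 5.04 to 6.44 in the other 10. The same 11 animals were those low in ZFY. For RASD1 and CEBPD the groups overlapped, at 9.89 to 12.41 against 11.21 to 13.58 for RASD1 and 6.41 to 9.76 against 8.75 to 9.51 for CEBPD at A_73_118824. Without the 11 animals, the difference of the positive from the unknown animals was -1.74 for KLF15 (0.24 with them) and -0.15 for TSC22D3 (0.77 with them), and neither was called, while CEBPD at A_73_114333 was called lower, at -1.23 (limma adjusted p = 0.0451) in place of -0.83.

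**Figure D4:**
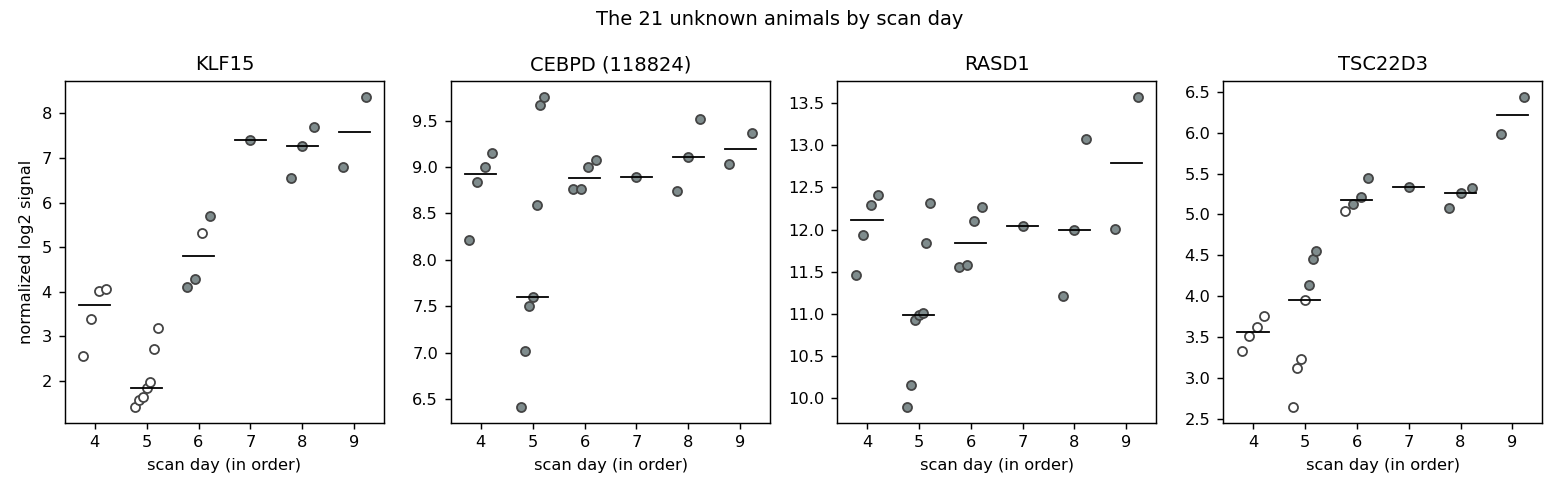
Normalized log2 signal (y axis) of 4 probes in the 21 unknown animals by scan day in order (x axis), with 1 point per animal, a bar at each day's median and open symbols for spots not well above background. KLF15 and TSC22D3 are at their lowest on scan days 4 and 5, where KLF15 does not pass 4.06.

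Genes of the receptor's machinery (chaperones, co-chaperones, import factors, coregulators and the enzymes that convert cortisol) were measured by 35 probes, which include NR3C1 and FKBP5. Against K, 4 were called lower in the positive animals and 0 higher, with a median of -0.41 beside -0.03 over all probes, of which 13.8% were called lower and 14.4% higher. They were BAG1 (-1.40), CDC37 (-1.35), TNPO1 (-1.09) and NCOR1 (-1.08), which are a co-chaperone, an HSP90 partner for kinases, an import receptor and a corepressor. The call was made at 1 of the 2 TNPO1 probes and 1 of the 3 NCOR1 probes, and the others of NCOR1 differed by 0.10 and -0.61. Against C, 2 were lower, FKBP5 and HSD11B1 (-1.25), the enzyme that regenerates active cortisol, and 0 higher, beside 9.4% and 8.4% of all probes, and the median was 0.02. HSP90AA1 and HSP90AB1 differed from K by 0.14 and -0.40 and from C by 0.22 and 0.19, with no call. Between the controls, 2 were higher in C (HSD11B1 by 1.96 and FKBP5) and 8 lower, among them NCOR1 and NR3C2 (-1.16), the mineralocorticoid receptor, beside 10.9% higher and 9.69% lower of all probes. Against the unknown animals, in both comparisons, 0 of the 35 were called. Of all probes, 0% were called higher and 0.0489% lower against all 21, and 0% each on the shared slides.

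Of 62 probes of other glucocorticoid-induced genes, 6 were called higher and 12 lower in the positive animals than in K and 44 were not called, beside 14.4% and 13.8% of all probes higher and lower. Their median was -0.22. Among those higher were SERPINA3, an acute-phase protease inhibitor (6.52 in the positive animals, and not well above background in any K animal, hence at least 5.29-fold higher), MT1A, a metallothionein (at least 5.57-fold), AGT, angiotensinogen (2.53), and TSC22D1 (1.61), a relative of TSC22D3. For these bounds, each K array's dim signal was raised to that array's lowest signal well above background where it lay below it. Among those lower were MSTN, the inhibitor of muscle growth myostatin (-2.36), GLUL, glutamine synthetase (-2.18), DDIT4, an inhibitor of mTOR signalling (-1.94), and DUSP1, a phosphatase of MAP kinases (-1.87).

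Against C, 5 of the 62 were higher and 12 lower, beside 8.4% and 9.4% of all probes, with a median of -0.05. MSTN (1.70), MT1A (1.68), TSC22D1 (1.64) and AGT (1.17) were higher, so that MSTN had opposite signs against the 2 control groups. In C, MSTN was well above background in 3 of 13 animals and MT1A in 6, so that these values set the positive animals against signals mostly at background. UCP3, a mitochondrial carrier of muscle (-3.92), GLUL (-2.47), TIPARP (-2.36) and CD163, a macrophage scavenger receptor (-2.26), were lower. Between the controls 12 were higher and 10 lower in C, beside 10.9% and 9.69% of all probes, among them UCP3 (3.25) and MSTN (3.599 in C against 7.66 in K). Against the unknown animals 0 of the 62 were called in either comparison, with medians of -0.26 over all 21 and -0.25 on the shared slides. Of all probes, 0% were called higher and 0.0489% lower against all 21, and 0% each on the shared slides.

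Genes that glucocorticoids repress were represented by 21 probes, of which 2 were called higher and 6 lower in the positive animals than in K, beside 14.4% and 13.8% of all probes. The lower ones included the collagens COL1A1 (-2.36) and COL3A1 (-1.77), the chemokine CCL5 (-2.17) and BGLAP, osteocalcin (-1.45). MMP13 and CRH were the higher ones, with MMP13 at least 1.21-fold higher and CRH, well above background in 1 of 5 K animals, at 5.25 against 3.63. Against C, 0 were higher and 5 lower, namely COL3A1 (-3.28), COL1A1 (-3.27), BGLAP (-1.11) and the dim PTGS2 and PRL, with a median of -0.34 beside -0.05 over all probes, of which 8.4% were called higher and 9.4% lower. The collagens are also fibroblast markers. Of 10 fibroblast probes, 8 were called lower than in C and 0 higher, and 5 lower and 1 higher (DCN, decorin, 1.63) than in K. The mean over the 10 probes was 8.85 in the positive animals, 9.52 in K and 10.63 in C. On the shared slides 0 of the 21 and 0 of the 10 were called, beside 0% of all probes in each direction. The part of fibroblast content in these values was not tested.

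The lipoprotein lipase system, in which ANGPTL4 acts and PDK4 was also counted, was measured by 21 probes. Against K, 5 were higher and 1 lower, beside 14.4% and 13.8% of all probes, with a median of 0.75. PPARGC1A, a coactivator of mitochondrial genes, was higher by 1.82 and 1.49 at its 2 probes, and LPL, the lipase itself, by 1.70. Against C, 4 were higher and 3 lower, beside 8.4% and 9.4% of all probes, among them FABP3, a fatty acid carrier of muscle (1.06), CPT1B, which brings fatty acids into mitochondria (1.0), and ANGPTL7 (5.47 against 2.97, with 1 of 13 C animals well above background). ANGPTL1 was lower by -1.06. PPARD, a fatty acid receptor called lower against both K and C, was well above background in 0 of the 4 positive animals, 1 of 5 K animals and 2 of 13 C animals. ANGPTL2 differed by -0.74 from K and -0.33 from C, and ANGPTL6 by -0.09 and -1.44, with no call. The receptors PPARG and PPARA differed from K by 0.99 and -0.11, also with no call.

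Relatives of RASD1 were read from 10 probes of RAS-like GTPases and partners, RASD1 included. On the slides of the positive animals 0 were called, as were 0% of all probes. Beside the -1.48 of RASD1 the other 9 differed by -0.31 to 0.33. Against K, 1 was called higher and 2 lower, beside 14.4% and 13.8% of all probes. NOS1, a partner of RASD1 in the cell, was higher (at least 2.18-fold), while RAP1A (-1.50) and RHEB (-1.30) were lower. Within the C/EBP family, 0 of 8 probes were called between the positive animals and any other group. Of all probes, 14.4% were called higher and 13.8% lower against K, and 8.4% and 9.4% against C. Against all unknown animals these shares were 0% and 0.0489%, and on the shared slides 0% each. CEBPB differed by -0.99 from K and -0.80 from C, and CEBPA was higher in C than in K by 1.0.

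Leukocyte, endothelial and muscle markers were read beside these genes, and their counts stand beside 14.4% of all probes called higher and 13.8% lower against K, and 8.4% and 9.4% against C. Of 12 leukocyte probes, 1 was called higher in each comparison with the controls (CD3D, 6.25 in the positive animals, 3.37 in K and 3.59 in C, where it was well above background in 1 of 5 and 2 of 13 animals) and 1 lower (ITGB2 against K, CD163 against C). On the shared slides 0 were called, as were 0% of all probes, with a median difference of -1.12 beside 0.02 over all probes. The mean over the 12 probes was 7.84, 7.81, 7.39 and 7.26 in S21, S54, S56 and S57 and 8.18, 7.98, 9.66 and 8.32 in animals 50, 81, 78 and 79, so that all 4 positive animals lay below all 4 slide mates, as they did for RASD1 and CEBPD. Of single probes, 6.63% also separated on these slides. The means of the muscle, adipocyte and fibroblast markers overlapped between these animals. The brightest leukocyte probe was that of CSF1R, and all 12 probes were well above background in these animals except 4 probes in animal 79. Of 13 endothelial and perivascular probes, 6 were higher than in K and 3 higher than in C, with VWF up by 1.55 and 2.37. Of 15 muscle probes, 2 were higher and 6 lower than in K and 0 higher and 5 lower than in C, led by the fast fibre genes MYH1 (-7.32 and -7.79 at A_73_117636), TPM1 (-5.27 and -5.97) and TNNC2 (-4.49 and -5.00). On the shared slides 0 of the 15 were called, beside 0% of all probes. The means of TPM1 and TNNC2 were there 11.70 and 13.17 in the positive animals and 14.78 and 15.16 in the slide mates. Haemoglobin genes, which mark red cells, were both higher than in K (HBA by 1.71 and HBB by 1.0, with HBB well above background in 3 of 5 K animals) and uncalled against C, and of 5 nerve probes 1 (S100B) was called higher against each control group, by 2.48 and 1.86, while the median of the 5 was -0.41 against K and 0.29 against C. The part of these shifts in the values of the 10 genes was not tested.

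Among named genes past the filter, those most like ANGPTL4 over the 43 arrays were VPS33A (Pearson's r = 0.80), IFT27 (0.77), FABP4 (0.77), RAMP2 (0.76) and TRARG1 (0.76), a protein of insulin-driven glucose uptake in fat and muscle. With each group's mean subtracted, these r values lay between 0.35 (VPS33A) and 0.54 (TRARG1), and ABHD14A (0.67), PTGDS (0.67) and CPT1A (0.64), the liver-type carnitine transferase, were among the 5 closest. All arrays share their normalization, so that r is a description with no test.

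RASD1 and CEBPD were close to each other and to NFKBIA, the inhibitor of NF-kappaB that glucocorticoids also induce. Over the 43 arrays RASD1 correlated with CEBPD at A_73_118824 (r = 0.74), NFKBIA (0.74), ANKS1A (0.72), ADAMTS9 (0.70) and HIF1A (0.70). The values for CEBPD and NFKBIA were 0.75 and 0.68 after subtracting group means. CEBPD at A_73_118824 was closest to NFKBIA (0.79), RASD1, CH25H (0.73), CDC42EP4 (0.68) and HIF1A (0.66). At A_73_114333 the closest genes were NFKBIA (0.76), RASD1 (0.70), HIF1A (0.66), GADD45G (0.66) and CH25H (0.65). For NFKBIA the positive animals averaged 12.18 ± 0.52 (SD, n = 4), against 13.88 ± 0.55 (n = 4) in their slide mates, 12.76 ± 0.49 (n = 5) in K and 12.85 ± 0.68 (n = 13) in C. Within the 21 unknown animals r between RASD1 and CEBPD was 0.75, and within the 13 C animals 0.82, at A_73_118824.

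**Figure D5:**
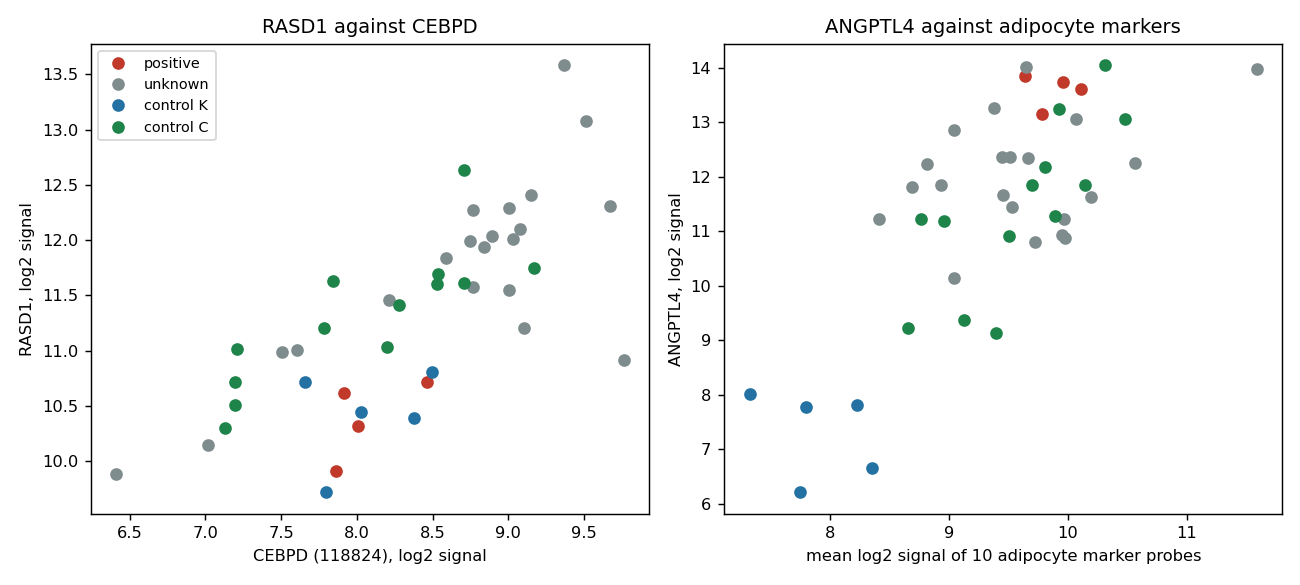
Left, log2 signal of RASD1 (y axis) against CEBPD at A_73_118824 (x axis), and right, log2 signal of ANGPTL4 (y axis) against the mean over 10 adipocyte marker probes (x axis), with 1 point per animal coloured by group. RASD1 and CEBPD rise together over the 43 arrays (r = 0.74), and the 5 K animals lie apart at the lower left for ANGPTL4.

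PDK4 ran with PER1 (r = 0.72), FKBP5 (0.70) and RASD1 (0.62) over the 43 arrays, and KLF15 with TSC22D3 (0.65). After subtracting group means these values were 0.58, 0.55, 0.59 and 0.62. Within the 13 C animals, none of which lay on scan days 4 and 5, r between KLF15 and TSC22D3 was -0.26, and within the 21 unknown animals it was 0.76.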

How the data were processed

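Single-colour Agilent bovine arrays of 43 animals were analysed, 1 array each. The authors deposited, for every spot, a processed intensity, from which the scanner software had subtracted background and spatial trends, with the raw intensity, the local background and quality flags. The study's methods name version 9.5.1 of Feature Extraction, and the file headers version 9.5.1.1 except for the K arrays (2 with 9.1.3.1, 3 with 9.5.3.1). A table of the authors' processed intensities, of unstated centring, served as an alternative. After log2 transformation, gene and spike-in spots were normalized together by cyclic loess (limma 3.58.1 in R 4.3.3), and the spots of a probe averaged without outlier flags. Probes with a log2 signal under 4 on 30 or more arrays were removed (5121 of 21475). Groups were compared by limma with Benjamini-Hochberg adjustment over 16354 probes, with slide as a block on the shared slides. ANGPTL4, CEBPD and RASD1 were also compared by two-sided exact permutation tests (scipy 1.17.1), which took no account of slide. The fits were tested on simulated data. Precision is limited by the number of animals. Alternatives covered scaling, background correction, filters, blocks and left-out animals, of which those without animals 50 and 79 or without the 5 of low spike-in signal were chosen after seeing the data.

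All members were named. From each gene list at most 4 called probes per direction and comparison were named, by size, if no array of the brighter group was at background. PPARD, PTGS2 and PRL fall outside this rule and were added with their values known. The members, lists and tests were chosen with earlier results of these data known. The table of gene names held no sequence, and coordinates were not used here.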

Additional observations from a re-analysis of the deposited data

Results flagged for a closer look

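Of 36 sets of 4 or 5 animals examined for a sample far from the others (12 probes in the positive animals, their slide mates and K), 1 was marked, where chance marks about 1 in 20. CEBPD at A_73_114333 was 7.88 in K7, while the other 4 K animals lay between 8.96 and 9.36. At the second CEBPD probe, A_73_118824, K7 was again the lowest at 7.66. Without K7 the log2 difference of the positive animals from K at A_73_114333 was -0.48 (-0.22 with it), under 2-fold.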

How the results depend on the processing

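The direction of the called differences of ANGPTL4, PDK4, FKBP5, PER1 and KLF15 was the same under the alternatives run, and of the recomputed values of called differences, 181 kept their direction and call, 20 lost the call and 1, TSC22D3 against K, turned. For differences that were not called, 690 values kept direction and side of the threshold, 69 turned and 23 became called. The latter included, against all unknown animals, ANGPTL4 and RASD1 with a filter on probes well above background (limma adjusted p = 0.0499 for both), RASD1 (-1.35) and PDK4 (-1.22) in the common fit, and CEBPD A_73_114333 (-1.23) without the animals low in ZFY. They also included CEBPD A_73_114333 against K with pairwise loess (-1.01), RASD1 against C with the authors' processed table (-1.12), TSC22D3 against C with pairwise loess (-3.10), and KLF15 against K and PER1 for C against K in several settings each. Where a number of called probes follows, it is over all probes, and the other numbers are log2 differences. With 75th percentile scaling, values were 0.014 for RASD1 and 0.19 for PER1 against K, and 0.069 for NR3C1 and -0.37 for TSC22D3 against the slide mates. The same setting gave 2 probes called against all unknown animals, and 0.0703 for SGK1 A_73_120011, 0.018 for SGK1 A_73_119800 and 0.24 for TSC22D3 against C. This setting also gave 0.92 for KLF15 (not called) for C against K. With quantile normalization, values were 0.023 for RASD1 and 0.043 for PER1 against K, and 0.052 for KLF15 against the slide mates. This setting also gave -0.40 for KLF15 and 39 probes called against all unknown animals, and 0.019 for SGK1 A_73_119800 and -0.94 for PER1 (not called) against C. The same setting gave 0.99 for KLF15 (not called) for C against K. With pairwise loess, values were 0.41 for SGK1 A_73_120011, 0.059 for SGK1 A_73_119800 and -0.33 for TSC22D3 against K, and -0.98 for TSC22D3 against the slide mates. The same setting gave -0.87 for TSC22D3, -1.25 for KLF15 and 114 probes called against all unknown animals, and 0.87 for SGK1 A_73_120011, -0.53 for CEBPD A_73_118824, -0.92 for PER1 (not called) and 5776 probes called against C. This setting also gave 0.069 for SGK1 A_73_119800, -0.043 for CEBPD A_73_114333 and 0.99 for KLF15 (not called) for C against K. With normexp background correction, values were 0.083 for CEBPD A_73_118824, 0.073 for SGK1 A_73_119800, 0.0298 for RASD1, 0.10 for PER1, 0.45 for TSC22D3 (not called) and 1362 probes called against K, and -0.016 for SGK1 A_73_120011, -0.059 for TSC22D3 and 0.088 for KLF15 against the slide mates. This setting also gave -0.015 for KLF15 and 1 probe called against all unknown animals, and 0.038 for SGK1 A_73_119800, -0.96 for PER1 (not called), -0.58 for KLF15 (not called) and 463 probes called against C. The same setting gave 0.079 for CEBPD A_73_118824, 0.035 for SGK1 A_73_119800, 0.70 for TSC22D3 (not called), 0.46 for KLF15 (not called) and 1391 probes called for C against K. Without a filter on dim probes, values were 7589 probes called against K, and 1390 probes called against all unknown animals. The same setting gave 5843 probes called against C. With all arrays in a common fit, values were 1.19 for PDK4 (not called) against K, and 1053 probes called against all unknown animals. The same setting gave -2.25 for KLF15 (not called) against C, and 1.31 for KLF15 (not called) for C against K. With slide as a random block, values were 0.026 for SGK1 A_73_119800 against K, and -0.023 for NR3C1 and -0.22 for KLF15 against all unknown animals. With scan day as a random block, values were 0.0011 for CEBPD A_73_118824 and 0.0044 for RASD1 against K, and -0.032 for NR3C1, -0.30 for KLF15 and 2 probes called against all unknown animals. This setting also gave 2.24 for ANGPTL4 (not called) against C, and 0.0026 for SGK1 A_73_119800 for C against K. With the authors' processed table, values were -0.00702 for SGK1 A_73_120011, -0.15 for KLF15 and 32 probes called against all unknown animals, and -0.026 for CEBPD A_73_118824 against C. With a filter on probes well above background, the value was 1406 probes called against all unknown animals. Without the unknown animals low in ZFY, values were -0.15 for TSC22D3, -1.74 for KLF15 and 3 probes called against all unknown animals. Without unknown animals 50 and 79, the value was 52 probes called against all unknown animals. Without the 5 unknown animals of low spike-in signal, the value was 17 probes called against all unknown animals. With 1 animal of a group of 4 or 5 left out at a time (positive, slide mates or K, but not C or all 21 unknown), differences were -0.14 to 0.10 for CEBPD A_73_118824, -0.19 to 0.22 for SGK1 A_73_119800, -0.38 to 0.0898 for PER1 and -0.20 to 0.14 for RASD1 against K, and -0.0102 to 0.15 for TSC22D3, -0.21 to 0.13 for NR3C1 and 0 to 9 for probes called against the slide mates. They were 0 to 2 for probes called and -0.072 to 0.54 for KLF15 against all unknown animals, and -0.17 to 0.23 for SGK1 A_73_119800, 2.07 to 2.31 for ANGPTL4, -1.36 to -0.89 for PER1 and -0.11 to 0.091 for CEBPD A_73_118824 against C. For C against K they were -0.11 to 0.19 for SGK1 A_73_119800, -0.12 to 0.25 for CEBPD A_73_114333 and -0.14 to 0.073 for CEBPD A_73_118824. The 9 called on the shared slides came without animal 79, and 0 came without any 1 of the other 7 animals. ANGPTL4 against C lost its call without any 1 of the 4 positive animals, and PER1 against C without S21 or S57. The cause of these shifts was not tested. Scan day as a block could not be fitted on the shared slides, which were scanned on 1 day. No paired analysis was possible because the groups compared share fewer than 2 replicate numbers, and S21 and C21, which share 1, are different animals. Dim probes (KLF15, TSC22D3) are limited by their signal over background.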
